A study of Mus musculus with 6 samples.

Results

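Expression of 8 genes that respond to TGFβ or build the contractile apparatus was followed in perichondrium, the connective tissue sheath around cartilage, of mice lacking fibrillin-1 in scleraxis-lineage cells. The genes were Acta2, Tagln, Cnn1, Tgfb1i1, Tgfbi, Ccn2, Pmepa1 and Tgif1, taken by symbol from GENCODE M21. All 8 were found among the 55536 genes of the count matrix, with Ccn2 listed under its current symbol, and all 8 passed the filter on low counts that left 15712 genes. Limb bone perichondrium was taken at postnatal day 4 and profiled by RNA sequencing in 2 groups. The mutant group (mut, 3 libraries) carries a deletion of Fbn1 by Scx-Cre, labelled Fbn1Scx-/-. The wild-type group (WT, 3 libraries) is labelled only as WT, and the labels do not say whether it carried floxed alleles or Cre. Strain and sex are not given. Nothing says that the libraries stem from different animals, so a p-value here covers only the spread among libraries, which may be technical. Because the Cre is driven by the promoter of the scleraxis gene, a transcription factor gene of tendon and ligament cells, other cells of the sheath may keep Fbn1. A library is named by its group and the number in its title (mut-596, WT-795 and so on), and where 3 values follow each other they are in ascending order of that number. Titles within the mut group differ, with ScxCRE for mut-596 and Koscx for mut-597 and mut-795.

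TGFβ is secreted in a latent form that is tethered to fibrillin microfibrils through latent TGFβ binding proteins. Once released, it binds receptor kinases that phosphorylate SMAD2 and SMAD3, which enter the nucleus with SMAD4 and regulate target genes. Those targets include matrix and matricellular genes (Tgfbi, Ccn2), genes that dampen the pathway (Pmepa1, Tgif1) and, in fibroblasts and smooth muscle, contractile genes (Acta2, Tagln, Cnn1) that also depend on serum response factor (SRF) bound at CArG boxes. In the growing limb, the perichondrium signals to the cartilage beneath it, and TGFβ is among the pathways through which it is known to do so. The title of the series names loss of TGFβ signalling in this tissue, and the comparison of mut with WT asks whether transcripts of the pathway differ.

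Total counts lay between 7209217 and 10316017 per library. Fbn1, the deleted gene, averaged 7.96 ± 1.81 CPM in mut and 89.1 ± 28.1 CPM in WT (SD, n = 3 each; CPM is the count scaled to library size with TMM factors), and was the only gene of 15712 past the edgeR threshold of adjusted p under 0.05. All 15 perichondrium markers were measured, with summed levels of 38890 to 40350 CPM in mut and 40450 to 41290 CPM in WT and no marker at 0. Counts of Xist, expressed from the inactive X chromosome, were 6221 for mut-596, 4024 for mut-597 and at most 4 for each of the others, so sex and genotype are partly confounded. Summed skeletal muscle markers spanned 2756 to 5609 CPM in mut and 3760 to 12390 CPM in WT, with WT-597 the highest.

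None of the 8 genes passed the test. Tgfb1i1, Acta2 and Tgfbi stood lowest in mut, at 0.496, 0.558 and 0.648 of the WT level, while Ccn2, Cnn1, Tgif1, Pmepa1 and Tagln differed by less. By edgeR 0 of 8 genes had an adjusted p under 0.05 beside 0.00636% of all genes tested, and limma-voom also called 0. DESeq2 called 0 too, beside 0.438% of the 4564 genes to which it gave an adjusted p. It gave none for Tgfb1i1, Cnn1 and Tgif1, so these could not be called there. At an unadjusted p under 0.05, 3 of the 8 were lower in mut by edgeR, beside 7.12% of all genes tested lower and 10.5% in either direction, and none was higher. Groups did not overlap for 1 of the 8, Tgfbi, which was lower in mut, beside 6.22% of all genes. Taking mut over WT on the log2 scale, the median was -0.28 for the 8 genes and 0.01 for all genes tested, with 7 of 8 below 0 beside 49.1% of all genes. With a stricter filter (CPM of at least 1 in 3 libraries) 0 of 8 passed, beside 0.00617% of genes called lower. These genes were chosen with earlier results on the same libraries known, so the counts are a description.

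**Figure D1:**
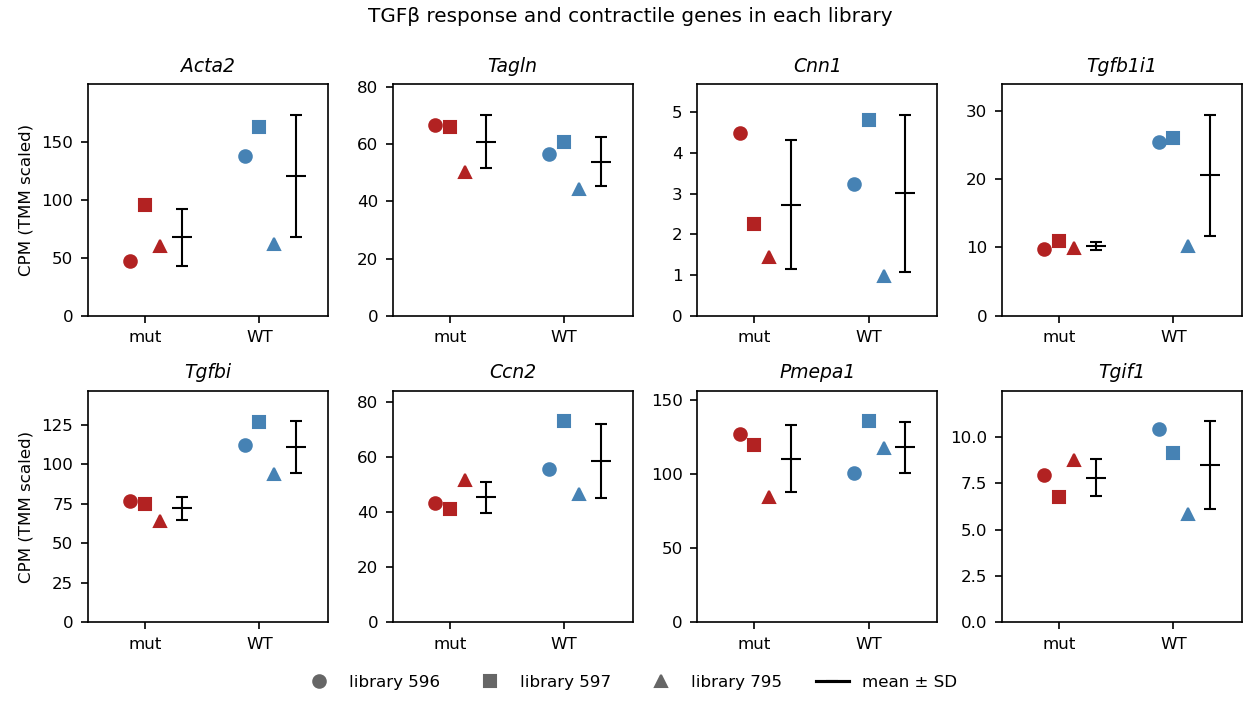
Levels of the 8 genes in each library in CPM (TMM scaled, linear axes from 0), mut at left in red and WT at right in blue, with marker shapes for the library numbers and the mean ± SD beside the points. Acta2 and Tgfb1i1 were high in WT-596 and WT-597 only, with WT-795 at 61.5 and 10.2 CPM among the mut values, and Tgfbi alone had groups that did not overlap.

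Acta2 (ENSMUSG00000035783, chr19:34241090-34255590 on GRCm38, minus strand) encodes smooth muscle alpha-actin, the actin of vascular smooth muscle and of myofibroblasts. Its level was 47.1, 95.1 and 60.3 CPM in mut, against 138, 163 and 61.5 CPM in WT. A pair of WT libraries lay above every mut library, and WT-795 lay inside the mut range. The means were 67.5 ± 24.8 CPM in mut and 121 ± 52.7 CPM in WT (SD, n = 3 each). The log2 fold change of mut over WT was -0.84 (SE 0.33, 95% interval -1.56 to -0.13), with an edgeR adjusted p of 0.459. By exact permutation of log2 CPM, two-sided, p was 0.2, and 0.1 is the smallest p that 3 against 3 allows. In a bulk sample, fewer cells of a type and less RNA per cell cannot be told apart.

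Tagln (ENSMUSG00000032085, chr9:45929619-45936058, minus strand) encodes transgelin (SM22-alpha), an actin-binding protein of smooth muscle and an early marker of contractile differentiation. Tagln was at 66.8, 65.8 and 50.1 CPM in mut, against 56.7, 60.7 and 44.2 CPM in WT. Its groups overlapped, and the 2 highest libraries were mut. On the log2 scale mut over WT was 0.18 (SE 0.22, 95% interval -0.30 to 0.65; edgeR adjusted p = 0.729), and its sign turned with the Xist covariate (-0.11) and without mut-596 and mut-597 (-0.13). Its counts are uncertain, because Gm48529, an antisense gene, shares 1241 exonic bases with it and no source says whether strand was used in counting. Gm48529 had 440, 390 and 451 counts in mut and 583, 562 and 285 in WT, close to the 439 to 506 Tagln counts in mut and 319 to 643 in WT. Of the 50-base words in Tagln transcripts, 55.4% also occur in Gm48529 on the other strand.

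Cnn1 (ENSMUSG00000001349, chr9:22099216-22109630, plus strand) encodes calponin-1, an actin- and calmodulin-binding protein of differentiated smooth muscle. It was near the floor of detection, with 34, 15 and 14 counts in mut and 34, 51 and 7 counts in WT. Those counts correspond to 4.49, 2.25 and 1.44 CPM in mut and 3.23, 4.81 and 0.97 CPM in WT. Every mut value lay inside the WT range. The log2 fold change was -0.19 with a wide 95% interval of -1.33 to 0.95 (SE 0.53, edgeR adjusted p = 0.885), and the sign turned under 5 of 19 alternative settings.

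The stretches before the RefSeq transcription starts of Acta2 and Cnn1 are shown because both genes are textbook SRF targets. Their levels over the 6 libraries had a Pearson r of 0.43, and 0.52 with group means removed. Cnn1 had only 7 to 51 counts per library, which limits either r. Whether promoter words bear on these levels was not tested. Both stretches come from RefSeq on GRCm38.p6, in the direction of transcription, and run 250 bases up to the RefSeq start. Acta2 is at chr19:34255374-34255623 on the minus strand and Cnn1 at chr9:22099003-22099252 on the plus strand. The GENCODE genes given above begin further upstream, at 34255590 for Acta2 and 22099216 for Cnn1. Part of each stretch therefore lies inside the GENCODE gene, and so do both Acta2 CArG boxes named below. Capitals mark CArG boxes with at most 1 C or G among their inner bases, and the TEAD-type word GGAATG on either strand.
Acta2: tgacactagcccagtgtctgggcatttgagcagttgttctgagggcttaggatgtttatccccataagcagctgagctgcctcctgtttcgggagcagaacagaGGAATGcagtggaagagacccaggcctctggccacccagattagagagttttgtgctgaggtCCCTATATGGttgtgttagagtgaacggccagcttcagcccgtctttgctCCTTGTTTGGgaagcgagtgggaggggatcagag
Cnn1: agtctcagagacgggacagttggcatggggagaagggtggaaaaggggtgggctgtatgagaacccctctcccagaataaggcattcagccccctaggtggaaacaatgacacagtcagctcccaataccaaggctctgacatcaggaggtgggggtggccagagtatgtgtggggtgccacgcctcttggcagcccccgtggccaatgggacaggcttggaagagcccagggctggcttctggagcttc
Acta2 held a pair of such CArG boxes, CCCTATATGG at 84 to 75 bases before the start and CCTTGTTTGG at 34 to 25 bases before it, and GGAATG at 146 to 141 bases. Cnn1 held none of these words in this window. Among 32851 RefSeq promoters searched over the same length, 8.59% held a CArG box with this tolerance, 1.47% a CArG box with only A or T inside, and 12.6% GGAATG. The SMAD-type word CAGAC, read on either strand and present in 42.2% of promoters, occurred in Acta2 and not in Cnn1. RefSeq stretches were matched for 4 of the 8 genes, and among the other two Tgif1 held a CArG box with 1 inner C or G (CCTTTTCTGG, 144 to 135 bases before 1 of its starts) and Tgfbi held none, while both held CAGAC. A match of letters is a description and not a measured binding site.

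Tgfb1i1 (ENSMUSG00000030782, chr7:128246812-128255699, plus strand) encodes Hic-5, a paxillin-family adaptor of focal adhesions that TGFβ induces. Its level was 9.77, 10.9 and 9.98 CPM in mut, against 25.4, 25.9 and 10.2 CPM in WT. The mut libraries lay within 1.12-fold of each other, WT-596 and WT-597 stood well above them, and WT-795 lay inside the mut range. Means were 10.2 ± 0.628 CPM in mut and 20.5 ± 8.90 CPM in WT (SD, n = 3 each). The log2 fold change of -1.01 (SE 0.31, 95% interval -1.69 to -0.34) was the largest of the 8, with an edgeR adjusted p of 0.459 and an exact two-sided permutation p of 0.2. With no filter on low counts, where 31958 genes were tested, it passed at an edgeR adjusted p of 0.0300, beside 0.742% of genes called lower under that setting.

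Tgfbi (ENSMUSG00000035493, chr13:56609523-56639562, plus strand) encodes TGFBI, a secreted matrix protein with fasciclin domains that binds collagens and integrins and is related to periostin. Its level was 77.0, 75.1 and 64.0 CPM in mut, against 112, 127 and 94.1 CPM in WT. Every mut library lay below every WT library, and the highest mut value was 18.2% under the lowest WT value. Averaged, this was 72.0 ± 7.04 CPM in mut and 111 ± 16.3 CPM in WT (SD, n = 3 each). The log2 fold change was -0.63 (SE 0.21, 95% interval -1.08 to -0.17), with an edgeR adjusted p of 0.459 and an exact two-sided permutation p of 0.1. Correcting for the trend of library differences with transcript GC content gave -0.41. Its paralogue Postn was at a log2 fold change of 0.17 (SE 0.25).

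Ccn2 (ENSMUSG00000019997, chr10:24595442-24598683, plus strand) encodes CTGF, a secreted matricellular protein widely used as a readout of TGFβ and of the YAP and TAZ coactivators. Ccn2 was at 43.5, 41.1 and 51.8 CPM in mut, against 55.8, 73.2 and 46.7 CPM in WT. The groups overlapped, since WT-795 lay below mut-795. Mut over WT came to -0.37 on the log2 scale (SE 0.23, 95% interval -0.86 to 0.12; edgeR adjusted p = 0.512). An overlapping gene on the other strand, Gm15270, shares 665 exonic bases with Ccn2 and had 22 to 59 counts in mut and 42 to 142 in WT, compared with 274 to 504 Ccn2 counts in mut and 337 to 776 in WT. Reads of the shared stretch cannot be assigned to a strand, and 17.2% of the 50-base words of Ccn2 occur in Gm15270.

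Pmepa1 (ENSMUSG00000038400, chr2:173224458-173276533, minus strand) encodes a membrane protein that sequesters SMAD2 and SMAD3 and is itself induced by TGFβ. Its level was 127, 119 and 84.7 CPM in mut, against 101, 136 and 118 CPM in WT. Mut and WT libraries were interleaved, at a log2 fold change of -0.10 (SE 0.23, 95% interval -0.59 to 0.39; edgeR adjusted p = 0.857) that turned to 0.16 with the GC correction. Tgif1 (ENSMUSG00000047407, chr17:70844205-70853546, minus strand) encodes a homeodomain repressor that binds SMAD2 and SMAD3. It was low, at 7.92, 6.75 and 8.74 CPM in mut, against 10.4, 9.15 and 5.82 CPM in WT. Its groups overlapped too, with a log2 fold change of -0.12 (SE 0.29, 95% interval -0.74 to 0.50; edgeR adjusted p = 0.858), and the sign turned without WT-596 (0.05), with the Xist covariate (0.04) and without mut-596 and mut-597 (0.01).

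The calls and the median depended on single libraries and on the setting. Without WT-597 the median of the 8 genes was -0.14 with 5 of 8 below 0, Ccn2 at -0.19 and Acta2 at -0.59, and without WT-795 the median was -0.56. Leaving out mut-596 gave a median of -0.49. With all 6 libraries, the median was -0.12 with a covariate for skeletal muscle markers and -0.64 with the Xist covariate. WT-795 was the lowest WT library for 7 of the 8 genes and the lowest of all 6 libraries for 3 of them. For 4 genes it lay inside the mut range, for 3 below it and for Tgfbi alone above it, whereas WT-597 was above the mut range for 7 genes. Without WT-795, Tgfb1i1 (log2 fold change -1.35, edgeR adjusted p = 0.00695), Acta2 (-1.18, edgeR adjusted p = 0.0156) and Tgfbi (-0.75, edgeR adjusted p = 0.0326) were called lower, 3 of the 8 beside 6.12% of all genes called lower without that library. Ccn2 did not pass there, at -0.52 (edgeR adjusted p = 0.115). Leaving out any other single library called 0 of the 8, beside at most 0.0318% of genes called lower. With both Xist-containing libraries left out, mut-795 alone against the WT libraries gave -1.07 for Tgfb1i1, -1.03 for Acta2, -0.82 for Tgfbi and -0.20 for Ccn2, none past the threshold.

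**Figure D2:**
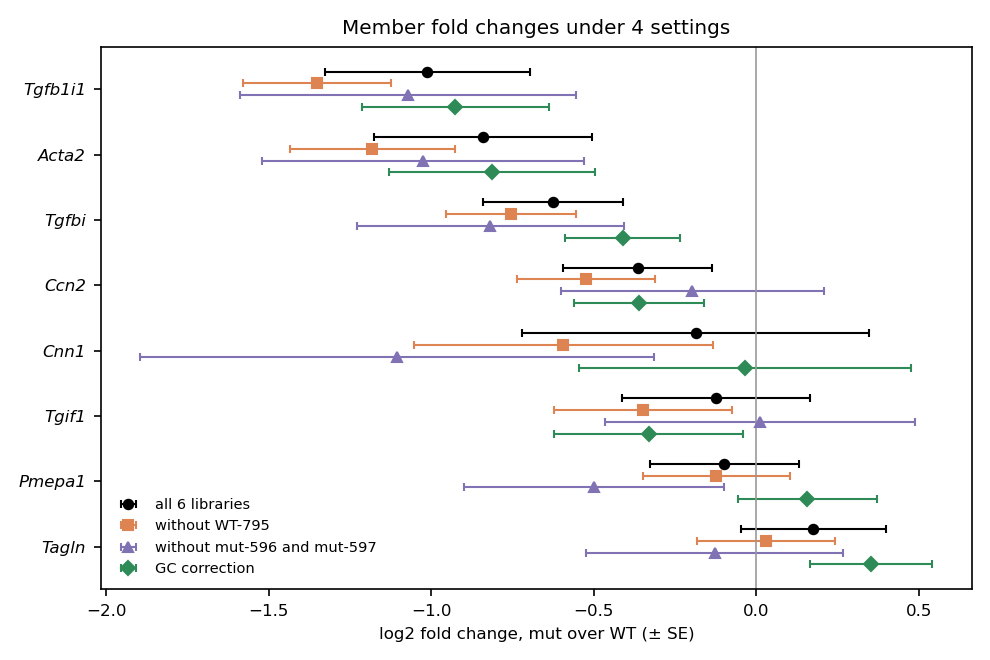
Log2 fold change of mut over WT (points) with its SE (bars) for each gene under 4 settings, which are all 6 libraries, without WT-795, without the 2 mut libraries that contain Xist, and with the GC correction. Tgfb1i1, Acta2, Tgfbi, Ccn2 and Cnn1 lie below 0 under all 4, Cnn1 with wide bars, while Tgif1, Pmepa1 and Tagln change side.

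Per kilobase of exon, the genes fell into a higher and a lower tier. FPKM (CPM per kilobase of the exon union) averaged 30.7 ± 11.3 for Acta2, 30.6 ± 4.72 for Tagln, 22.5 ± 4.60 for Pmepa1, 19.1 ± 1.87 for Tgfbi and 15.9 ± 1.98 for Ccn2 in mut (SD, n = 3). The WT levels were 55.0 ± 24.0 for Acta2, 29.5 ± 4.33 for Tgfbi, 27.1 ± 4.32 for Tagln, 24.1 ± 3.54 for Pmepa1 and 20.5 ± 4.71 for Ccn2 (SD, n = 3). Library values of neighbours in either order overlapped inside the upper tier. Its ends did not, since every Acta2 value lay above every Ccn2 value within mut and within WT. Tgfb1i1, Tgif1 and Cnn1 formed the lower tier, at 1.83 ± 0.113, 1.39 ± 0.178 and 0.997 ± 0.577 FPKM in mut and 3.67 ± 1.59, 1.51 ± 0.425 and 1.10 ± 0.706 FPKM in WT. Mut libraries of Tgfb1i1 lay above those of Tgif1, but by the longest transcript these levels were 2.70 ± 0.166 and 2.48 ± 0.319 FPKM in mut, within their spread. The ratio of Acta2 to Tagln FPKM was 0.639, 1.31 and 1.09 in mut, against 2.20, 2.43 and 1.26 in WT. Acta2 and Tagln as counted thus did not keep 1 ratio across libraries, with WT-795 next to the mut values. Because the antisense gene Gm48529 makes the Tagln counts uncertain, the Tagln rank and this ratio are uncertain too.

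**Figure D3:**
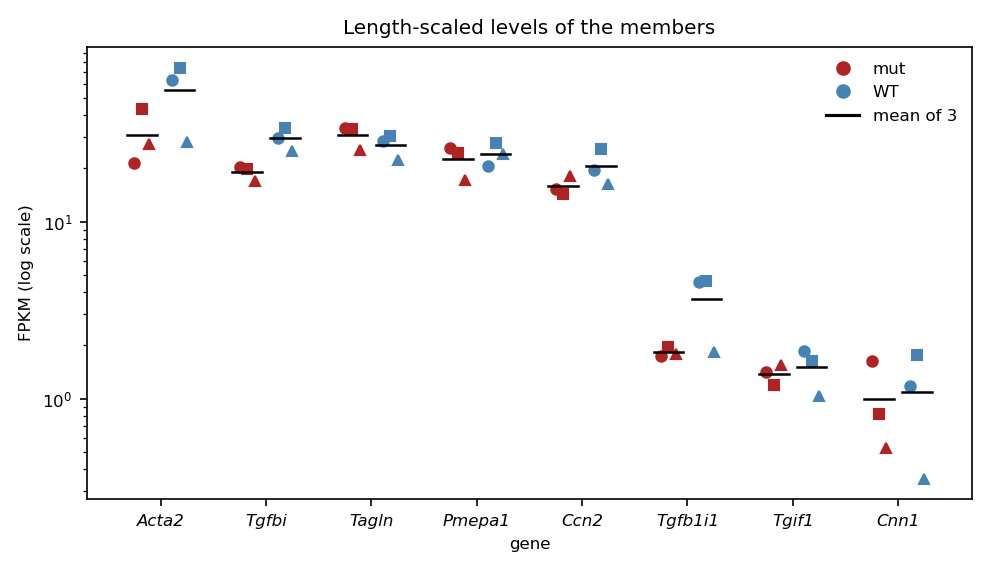
FPKM of each gene on a log axis, mut at left of each pair in red and WT at right in blue, with 1 point per library and a black line at the mean of 3. Acta2, Tgfbi, Tagln, Pmepa1 and Ccn2 have means between 15.9 and 55.0 FPKM, and Tgfb1i1, Tgif1 and Cnn1 between 0.997 and 3.67 FPKM.

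Across the 6 libraries, Acta2 and Tgfb1i1 ran most closely together (Pearson r = 0.92 of log2 CPM), and r was 0.88 after the group means were removed. Tgfbi and Tgfb1i1 came next (r = 0.88, and 0.78 with group means removed). Tagln and Cnn1 (0.82 and 0.91) and Ccn2 and Tgfb1i1 (0.82 and 0.68) followed with equal r. Acta2 and Tagln had r = 0.22, and 0.64 with group means removed. With group means removed the closest pair was Tgfbi and Tagln, at 0.97, although their r over all 6 libraries was 0.01. Pmepa1 and Tgif1 had the lowest r, at -0.29. These values describe 6 libraries that share their depth and tissue make-up. Cnn1 rests on few counts, and Tagln on uncertain ones. Among 5941 other genes whose log2 CPM averaged 4 or more, the profiles nearest to the mean of Acta2, Tagln and Cnn1 were those of Arid1a, Stat3, Sgce, Raly and Anxa3 (r = 0.97 to 0.98). Those nearest to Ccn2 were Rcan1, Chchd7, Gm5586, Gm6392 and Gm10736 (r = 0.98 to 0.99), and 29 genes had an r over 0.95 with Ccn2.

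Of 23 other contractile and cytoskeletal genes tested, 18 lay below 0, and their median (log2, mut over WT) was -0.30 beside 0.01 over all genes. None of them passed by edgeR, DESeq2 or limma-voom. However, DESeq2 gave no adjusted p to Actg2 and to others with low counts, such as Myh11, so those could not be called there. By edgeR 7 of the 23 were lower and 0 higher at an unadjusted p under 0.05, beside 7.12% of all genes lower. With no filter edgeR called 5 lower (Tpm2, Smtn, Des, Pdlim7 and Hspb1), beside 0.742% of genes. Smtn, which encodes smoothelin of contractile smooth muscle, was at -1.17 (SE 0.38), and Pdlim7, a PDZ-LIM scaffold of actin filaments, at -1.13 (SE 0.34). Actg2, the enteric smooth muscle actin, was at 0.499 of its WT level and Myl9, the regulatory myosin light chain of smooth muscle, at -0.68 on the log2 scale. Des and Tpm2, which skeletal muscle also expresses at high levels, were at -1.42 and -1.35, and Tpm1 at -0.46. In contrast Mylk, the myosin light chain kinase gene, was at 0.46, and Myh11, the smooth muscle myosin heavy chain, at -0.09 (SE 0.39). With the GC correction 14 of the 23 were below 0 with a median of -0.09, and with a covariate for skeletal muscle markers 14 of 23 with a median of -0.06. Des is among the 23 and also among the markers in that covariate, so it was partly adjusted for itself. Without WT-597, 13 of the 23 were below 0 with a median of -0.05, and Tpm2 was at -0.44, Des at -0.73 and Actg2 at -0.53. Without WT-795, 8 of the 23 were called lower beside 6.12% of all genes, among them Smtn, Pdlim7, Actg2, Myl9, Des and Tpm2, and also Zyx and Hspb1. Zyx and Hspb1 are named after their values were seen.

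**Figure D4:**
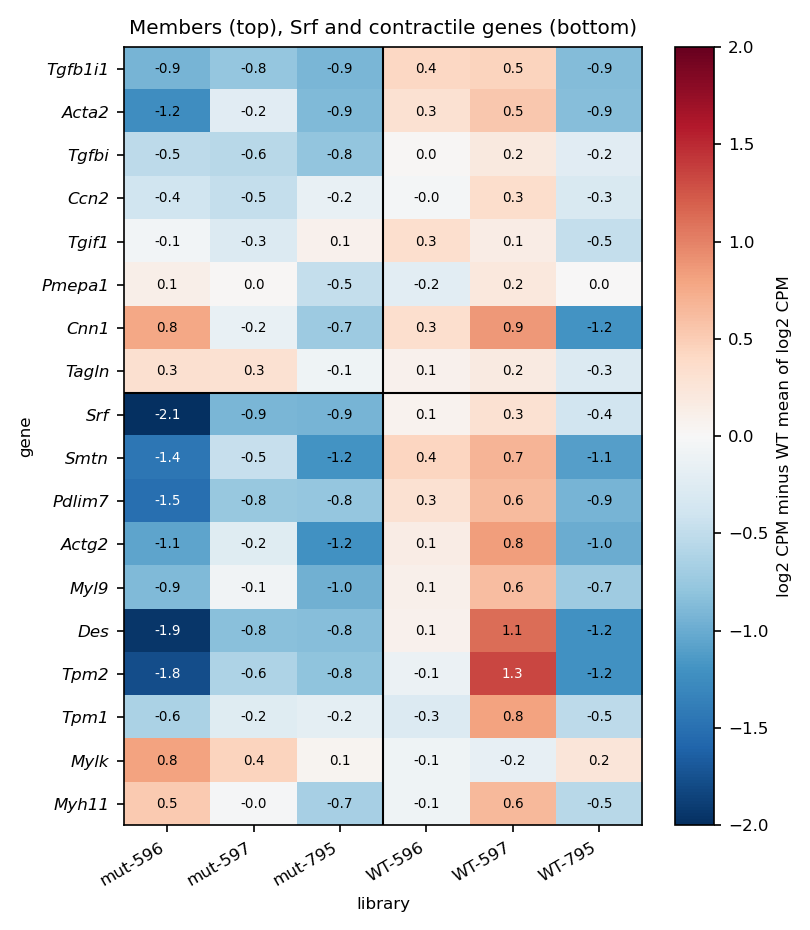
Log2 CPM of each gene minus its mean over the WT libraries, for the 3 mut libraries at left and the 3 WT libraries at right, with members above the line and Srf and other contractile genes below it. The WT-795 column is blue like the mut columns for Acta2, Tgfb1i1, Smtn, Pdlim7, Actg2, Myl9, Des and Tpm2, while Tgfbi and Srf are nearer to the other WT columns there.

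Of the 12 tested factors that act on these genes, Srf had the largest log2 fold change, on few counts. Srf was at 1.06, 2.70 and 2.67 CPM in mut, against 5.60, 6.61 and 4.02 CPM in WT. Its groups did not overlap, as in 6.22% of all genes tested lower in mut and 11.9% in either direction. Counts were 8 to 26 in mut and 29 to 70 in WT. Mut over WT was -1.33 on the log2 scale (SE 0.40; edgeR adjusted p = 0.459), and -0.90 with the GC correction. Without WT-795 it passed, at -1.52 (edgeR adjusted p = 0.0328). Myocd, the smooth muscle cofactor of SRF, was at 0.41 (SE 0.56), Smad2 and Smad3, the receptor-activated SMADs, at 0.34 and -0.09, the coactivators Yap1 and Wwtr1 at 0.05 and 0.18, and the DNA-binding partners Tead1 and Tead3 at 0.38 and -0.56. No member of these 12 tested regulators passed by edgeR, beside 0.00636% of all genes. At an unadjusted p under 0.05 by edgeR 1 of the 12 (Srf) was lower, a share near the 7.12% of all genes lower. Of the 12, 4 were below 0, beside 49.1% of all genes.

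Other TGFβ-responsive genes showed no shared direction. Of 30 tested, 15 lay below 0 and 15 above, the median was -0.01, and none passed by edgeR, DESeq2 or limma-voom. DESeq2 gave no adjusted p to several with low counts, among them Ltbp2, Nox4 and Bhlhe40, so those could not be called there. At an unadjusted p under 0.05 by edgeR, 2 of the 30 were lower and 0 higher, a share near the 7.12% of all genes lower. These 2 were Ltbp2, a microfibril-associated protein gene, at -0.70 (SE 0.29) and Itgb5, an integrin subunit gene, at -0.64 (SE 0.27). Groups did not overlap for 5 of the 30, beside 11.9% of all genes, and 4 of these were lower in mut, beside 6.22%. The classical SMAD targets Smad7, Skil and Junb were at 0.28, 0.47 and -0.32. Thbs1, a TGFβ-activating matricellular gene, was at 0.25, Nox4, an oxidase gene induced by TGFβ, at 0.64, Bhlhe40, a helix-loop-helix repressor gene, at -0.50, and Ccn1, the nearest relative of Ccn2, at -0.44. With the GC correction Ltbp2 was at -0.31, Itgb5 at -0.27, Skil at 0.16 and Nox4 at 0.19, and without WT-597 Bhlhe40 was at -0.23. Without WT-795, Itgb5 was called lower and Skil, which encodes a SMAD corepressor, higher (0.73, edgeR adjusted p = 0.0420).

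Members of the same protein families were compared to see whether a member stood apart from its relatives. Tagln2 was at -0.67 (SE 0.25) while Tagln, with its uncertain counts, was at 0.18. Cnn2 and Cnn3 were at -0.22 and -0.04. Among actins, the skeletal Acta1 and cardiac Actc1 were at -0.91 and -0.88, and the cytoplasmic Actb and Actg1 at -0.21 and 0.18. Only 0.326% of the 50-base words of Acta2 transcripts were shared with another gene, Actg1 and its copies, and none with Acta1, Actc1 or Actg2. The paxillin gene Pxn, related to Tgfb1i1, was at -0.42, and Tgif2 at -0.35. None of these passed by edgeR.

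Markers of vessel wall and muscle cells are given beside the contractile genes, since those cells also express them. Of 12 mural cell markers (pericytes and vascular smooth muscle), 8 lay below 0 with a median of -0.10, and their summed levels were 478 to 599 CPM in mut and 553 to 741 CPM in WT. Des and Myh11 are also in the contractile list. Without these 2, a choice made after the data were seen, 6 of 10 lay below 0 with a median of -0.09, and the sums were 384 to 534 CPM in mut and 377 to 499 CPM in WT. Ndufa4l2 was at -1.34, Cspg4 at -0.34. Rgs5, a pericyte gene named after its values were seen, was at 0.32. Of 22 skeletal muscle markers, 21 lay below 0 with a median of -0.84, and none of either list was at 0 in all libraries or passed by edgeR. With a covariate for the muscle markers Acta2 was at -0.35, Tgfb1i1 at -0.68 and Tgfbi at -0.54. A covariate for those 10 mural markers left them at -0.57, -0.76 and -0.55. The 12 endothelial markers had a median of -0.05, with summed levels of 267 to 339 CPM in mut and 307 to 316 CPM in WT. Of these, 4 were lower at an unadjusted p under 0.05 by edgeR and 0 higher, beside 7.12% of all genes lower. They included Plvap, a protein of fenestrated endothelium, at 11.5, 18.2 and 12.6 CPM in mut, against 42.6, 39.2 and 11.6 CPM in WT. Plvap (-1.16 on the log2 scale) thus had WT-795 beside the mut libraries, as Acta2 did. Egfl7, another of the 4 and named after its values were seen, had groups that did not overlap (-0.54 on the log2 scale). It was at 9.90, 12.75 and 12.55 CPM in mut, against 20.8, 17.36 and 13.03 CPM in WT. Groups did not overlap for 2 of the 12, both lower in mut, beside 6.22% of all genes lower. Among the 12 markers 7 lay below 0 and 5 above. The part of these cell types in the Acta2 and Tgfb1i1 values was not tested beyond these covariates.

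**Figure D5:**
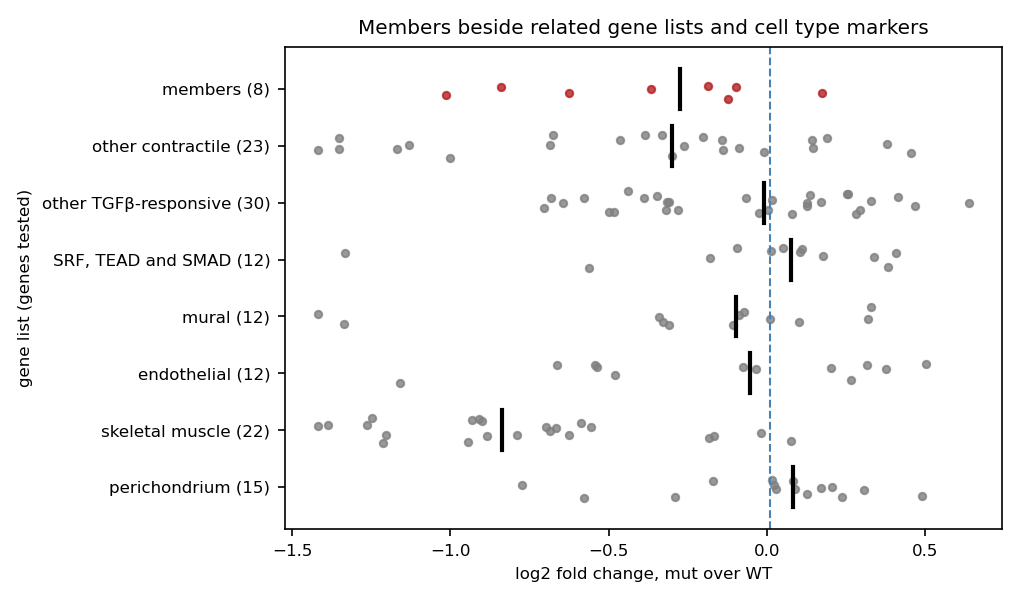
Log2 fold change of mut over WT for each tested gene (points) in the 8 members and 7 other lists, with the list median as a black bar and the median of all genes as a dashed line at 0.01. The members and other contractile genes have medians of -0.28 and -0.30, other TGFβ-responsive genes -0.01, and skeletal muscle markers -0.84.

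The authors' deposited table of differential genes, which holds 1643 genes, lists Tgfb1i1, Acta2 and Tgfbi among the 8, at log2 fold changes of -1.02, -0.85 and -0.63. No threshold is given for it. The DESeq2 refit had 1640 genes at an unadjusted p under 0.05, these 3 members among them. At an adjusted p under 0.05 it called 0 of the 8, with no adjusted p for Tgfb1i1. In the authors' deposited table Srf stands at -1.35, and Ccn2, Tagln, Cnn1, Pmepa1 and Tgif1 have no entry.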

How the data were processed

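RNA of 6 perichondrium libraries was, per the labels' protocols, isolated with the RNeasy micro kit and amplified as full-length cDNA (SMART-Seq v4) for Nextera XT libraries. The authors deposited raw counts per gene, on GRCm38.p6 per the submitters' processing notes, and a table of log2 fold changes, whose log base was judged from its equality with a DESeq2 refit within 1e-04 for 1271 of 1272 genes matched by symbol. The sources used here give no strand or multi-match setting and no threshold for the authors' table.

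Counts were fitted with edgeR 4.0.16 (R 4.3.3) by quasi-likelihood with TMM scaling, filterByExpr and Benjamini-Hochberg adjustment over 15712 genes, two-sided, without covariates. SE is the size of the log2 fold change over the square root of F. Log2 CPM used a prior count of 2. FPKM is CPM per kilobase of exon union. The procedure was tested on simulated data, and the outcome is not given here. DESeq2 1.42.0, limma-voom (limma 3.58.1), other scalings and filters, a lowess GC offset, marker and Xist covariates, a replicate block and omission of each library were alternatives, with the main gene filter kept where libraries were left out. Members and lists were chosen with earlier results of these data known. Named genes were all members, a fixed set, the 4 with the smallest p in each related list, up to 3 in a marker list, and the nearest profiles. 1 gene of the fixed set is not reported here. Reads carry no molecular identifiers.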

Additional observations from a re-analysis of the deposited data

How the results depend on the processing

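Across 19 alternative settings, Tgfb1i1, Acta2, Tgfbi and Ccn2 kept their direction, at -1.35 to -0.68, -1.18 to -0.35, -0.82 to -0.41 and -0.52 to -0.16. The count of members called lower was 0, with 1 under no filter and 0 to 3 when single libraries were left out, and none was called higher under any setting. Genes called lower numbered 1 in the full data, 237 with no filter, 18 by DESeq2, 0 with the Xist covariate and 1 to 962 when single libraries were left out. Those called higher numbered 0, then 33 with no filter, 2 by DESeq2, 3 with the replicate block and GC correction together, and 0 to 550 when single libraries were left out. DESeq2 gave no adjusted p for Tgfb1i1, Cnn1 and Tgif1.

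Signs turned for Tagln with the Xist covariate (-0.11) and without the Xist-containing libraries (-0.13), and for Tgif1 under the same settings (0.0361 and 0.0112). Cnn1 turned with the muscle (0.10) and mural (0.0925) covariates and with the block and GC correction together (0.0660), and Pmepa1 with the GC correction (0.16) and with the block as well (0.15). When single libraries were left out, Cnn1 spanned -0.76 to 0.29, Pmepa1 -0.21 to 0.0540 and Tgif1 -0.35 to 0.0495. The cause of these turns was not tested. Same-numbered libraries did not deviate together (correlations of -0.18, 0.24 and -0.20 in ascending order of number), so the numbers were not taken as pairs. With the replicate block Acta2 was at -0.78, Tgfb1i1 at -0.90, and 0 members passed, with 1 gene called in all. With lengths of the longest transcript, FPKM moved most for Tgif1, to 2.48 in mut and 2.69 in WT, and Tagln (38.2) then exceeded Acta2 (33.2) in mut. Low counts limit Cnn1, the antisense overlap limits the level of Tagln, and 3 libraries per group limit every p.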
